A study of Mus musculus with 6 samples.

Results

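Regulators of inflammatory mRNA decay were examined in primary mouse hepatocytes exposed to interleukin-1β (IL-1β). The genes were chosen by symbol: Zfp36, Zfp36l1 and Zfp36l2, Zc3h12a, Zc3h12c and Zc3h12d, Rc3h1 and Rc3h2, and Elavl1. These are 9 of the 23282 genes in the deposited table, and each was found once. Hepatocytes of the C57BL6/N genotype, isolated from liver, were kept in culture for 24 h. The control group (3 samples) received no treatment and the IL-1β group (3 samples) received the recombinant protein. All cells in both groups carried the same genotype and no other agent is named. The labels do not give the dose of the sequenced cultures, the age of the animals or whether the 3 samples of a group came from separate animals. The p-values below therefore measure the spread between these samples, which may be technical.

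Cytokine and chemokine mRNAs are often short-lived, and proteins bound to their 3′ untranslated regions (3′ UTRs) speed or slow their decay. The ZFP36 proteins bind AU-rich elements through CCCH zinc fingers and bring in the CCR4-NOT deadenylase, which removes the poly(A) tail. The Regnases, encoded by the Zc3h12 genes, are endoribonucleases, of which Regnase-1 cleaves stem-loops in the 3′ UTRs of mRNAs that are being translated. The Roquins, encoded by Rc3h1 and Rc3h2, bind stem-loops and also recruit CCR4-NOT. HuR, encoded by Elavl1, binds AU-rich and U-rich sequence and in general stabilizes its targets. Several of these mRNAs are themselves known targets of the proteins they encode.

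RNA was sequenced by QuantSeq, which yields reads from the 3′ end of polyadenylated RNA, so counts do not grow with transcript length and were not divided by it. The libraries held 9538741 to 11105408 counts. Values are given as normalized read counts (CPM, each gene's reads relative to its TMM-scaled library size). In one library 3 counts, taken as the limit of detection, equal 0.269 to 0.321 CPM, which covers counting error only. IL-1β was compared with control in the 11657 genes with enough counts by the quasi-likelihood test of edgeR, with Benjamini-Hochberg adjustment over those genes and a threshold of 0.05. With 3 samples in each group, 0.1 is the smallest two-sided p that an exact permutation test allows.

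The AU-rich sequence that ZFP36 proteins recognize, TATTTAT in DNA letters, was searched in 1 annotated 3′ UTR of each gene (GENCODE annotation, GRCm38 build). At least 1 copy was present in 7 of the 9 genes, against 27.3% of the 10944 tested genes with a 3′ UTR. Zc3h12a and Zc3h12d held none. The median 3′ UTR over all tested genes was 955 nt long, and the 3′ UTRs of the 9 genes ranged from 774 nt in Zfp36 to 7181 nt in Rc3h1, so long UTRs had more room for a match. Zfp36 held 3 copies in its 774 nt, the shortest 3′ UTR of the 9. The 3 sites of Zfp36 and one site each of Zfp36l1, Zfp36l2, Zc3h12c and Elavl1 are shown because they hold the letters that ZFP36 proteins recognize. Capitals mark the heptamer, and the number after each name is the position of its first base counted from the first base of the 3′ UTR.
Zfp36, 575: gggcccttTATTTATgacgactt
Zfp36, 590: gacgacttTATTTATtgtattaa
Zfp36, 615: ttttatagTATTTATatatattg
Zfp36l1, 1150: tcaaaacgTATTTATtgccaaac
Zfp36l2, 822: atttaactTATTTATtatcttgt
Zc3h12c, 527: ataatcatTATTTATaggaacaa
Elavl1, 3799: aaattattTATTTATttatttat
In Elavl1 the heptamer recurred 8 times in overlapping runs near the end of a 3′ UTR of 4218 nt. The shorter pentamer ATTTA, which every heptamer contains, occurred in all 9 genes and in 66.2% of all tested genes. Its density was highest in Rc3h2, with 7.16 copies per kb, and lowest in Zc3h12d, with 0.859 per kb, against a median of 1.26 per kb over all tested genes. A match is a description of the sequence and not a measurement of binding.

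The 250 bases upstream of each annotated RefSeq start were read from promoter windows (GRCm38.p6), which matched 8 of the 9 genes. Zfp36l2 was not matched. Both windows printed here belong to the genes that passed the test after IL-1β. Capitals mark the GC box GGGCGG on either strand. Both are on the minus strand and are printed 5′ to 3′ in the direction of transcription.
Zc3h12a, chr4:125127882-125128131: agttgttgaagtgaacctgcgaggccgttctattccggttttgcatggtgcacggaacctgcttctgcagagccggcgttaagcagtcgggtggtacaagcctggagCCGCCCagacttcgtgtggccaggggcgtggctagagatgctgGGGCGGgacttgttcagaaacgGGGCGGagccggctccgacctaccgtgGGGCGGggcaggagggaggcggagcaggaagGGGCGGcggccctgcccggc
Zc3h12c, chr9:52168407-52168656: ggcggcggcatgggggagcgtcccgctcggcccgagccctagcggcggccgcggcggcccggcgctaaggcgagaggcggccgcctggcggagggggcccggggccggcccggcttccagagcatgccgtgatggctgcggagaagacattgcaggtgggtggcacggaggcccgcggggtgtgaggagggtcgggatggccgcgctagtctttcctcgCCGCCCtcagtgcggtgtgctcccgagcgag
The Zc3h12a window held 5 GC boxes and the Zc3h12c window held 1, and a GC box was found in 32.7% of all 32851 windows. Among genes that did not pass the test, the Rc3h1 window also held 5, and the Zfp36 and Zc3h12d windows held 1 each. Annotated starts of Zc3h12c differ between sources. GENCODE extends this gene to 52168572, inside the printed window, and the interval given for the gene below ends at 52168111. A second annotated start of Zc3h12c had no GC box and 1 CCAAT box. The AP-1 motif TGANTCA was present upstream of Zfp36l1 and Rc3h1 and in 6.75% of all windows. A consensus for NF-κB, searched on both strands, matched none of the members' windows and 3.9% of all windows. The absence of a match says only that these letters are not in this window.

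Of the 9 genes, 2 rose after IL-1β, 0 fell and 7 did not pass the test. All 9 had enough counts to be tested. Over all tested genes 6.97% were called higher, 6.44% lower and 13.4% in either direction. The genes that rose were Zc3h12a and Zc3h12c, both of the Regnase family. In Zfp36l1, Zfp36l2, Zc3h12a, Zc3h12c and Zc3h12d the IL-1β samples did not overlap the controls, as in 28.2% of all tested genes. Zc3h12d reached the test only through its IL-1β samples, so these counts are a description. The median log2 fold change of the 9 genes was 0.066 and that of all tested genes was -0.0018.

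**Figure D1:**
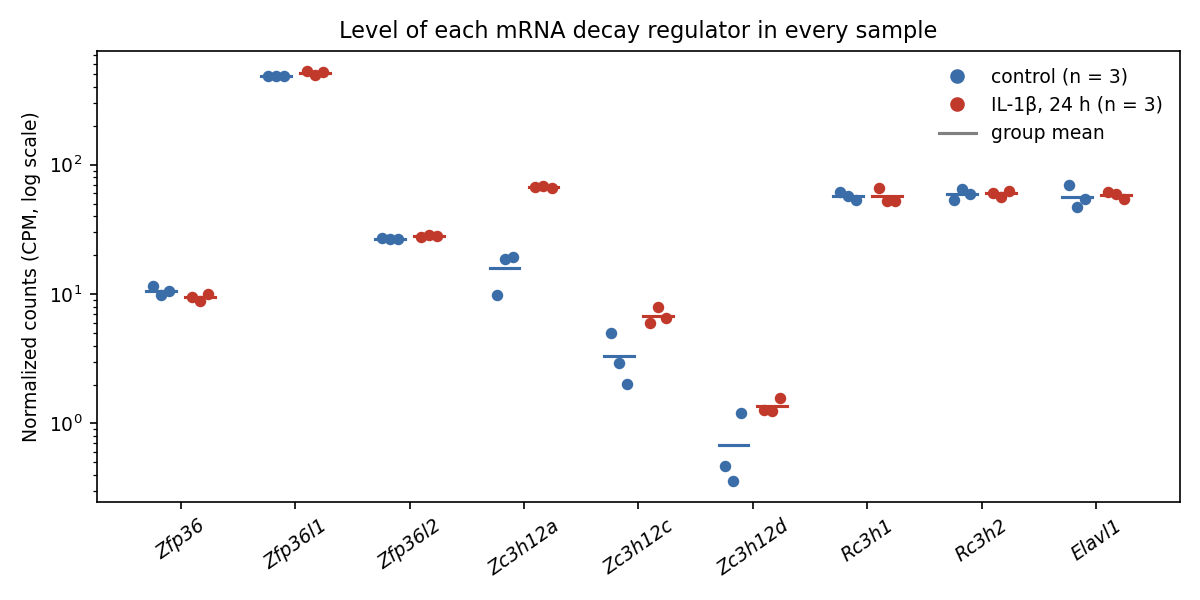
Normalized read counts (CPM, log axis) of the 9 genes in each control and IL-1β sample, with points for samples and horizontal lines for group means. Zc3h12a moved from 9.86 to 19.2 CPM in controls to 66 to 68.5 CPM after IL-1β, whereas the Zfp36, Roquin and Elavl1 samples stayed close to their controls.

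Zc3h12a encodes Regnase-1 and spans chr4:125118414-125127881 on the minus strand (GRCm38). Its level was 9.86, 18.8 and 19.2 CPM in the control samples and 67.7, 68.5 and 66 CPM after IL-1β. Every IL-1β sample was above every control, control 1 was the lowest, and the IL-1β samples were closer to each other than the controls were. The mean rose from 16 ± 5.29 to 67.4 ± 1.27 CPM (SD, n = 3), a 4.22-fold increase with a 95% interval of 3.4 to 5.25. The log2 fold change was 2.08 (standard error 0.152, edgeR adjusted p = 1.2e-10), and the exact permutation test gave p = 0.1. Without control 1 the log2 fold change was 1.82, and without control 3 it was 2.23.

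Zc3h12c encodes Regnase-3, a related endoribonuclease known from macrophages, and spans chr9:52111985-52168111 on the minus strand. It was measured at 4.98, 2.95 and 2.02 CPM in controls and at 5.99, 7.88 and 6.51 CPM after IL-1β, from 20 to 53 and 56 to 82 raw counts. The groups did not overlap, with control 1 close to IL-1β sample 1. The mean rose from 3.32 ± 1.51 to 6.79 ± 0.977 CPM (SD, n = 3). The log2 fold change was 1.03 with a standard error of 0.307 and an edgeR adjusted p of 0.0251. This call depended on single libraries at these low counts. Without control 2 the adjusted p was 0.0828, without control 3 it was 0.122, without IL-1β sample 2 it was 0.134 and without IL-1β sample 3 it was 0.0714. In these 4 fits and in the 2 others that left out a library, its log2 fold change stayed between 0.78 and 1.44.

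Zc3h12d, which encodes Regnase-4 and is known from lymphoid cells, lies at chr10:7832470-7870397 on the plus strand. Its counts were 5, 4 and 12 in controls and 12, 13 and 17 after IL-1β, equal to 0.47, 0.358 and 1.21 CPM and to 1.28, 1.25 and 1.58 CPM. Control 3 was near IL-1β samples 1 and 2, and the groups did not overlap. The log2 fold change was 1.03 (95% interval -0.15 to 2.21, edgeR adjusted p = 0.295). Zc3h12d entered the test through the IL-1β samples, since only 1 control exceeded 5 counts.

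Within the Regnase family, Zc3h12a made up 64.4%, 85% and 85.7% of the summed CPM in controls and 90.3%, 88.2% and 89.1% after IL-1β. The mean share differed by 10.8 percentage points (78.4 ± 12.1% against 89.2 ± 1.03%, SD, n = 3), and all IL-1β samples were above all controls (exact permutation p = 0.1, the smallest possible). The difference was 3.87 points without control 1 and 14.5 points without control 3. The family sum was 15.3, 22.1 and 22.5 CPM in controls and 74.9, 77.6 and 74.1 CPM after IL-1β. The log2 ratio of Zc3h12a to Zc3h12c was 0.99, 2.67 and 3.26 in controls and 3.50, 3.12 and 3.34 after IL-1β. These ratios overlapped between the groups (difference 1.02, exact permutation p = 0.2, 0.267 after adjustment over the 8 pairs compared), and the difference was 0.36 without control 1.

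Zfp36 encodes tristetraprolin, the best known AU-rich element binding protein, and is known as an early response gene. It spans chr7:28376784-28379228 on the minus strand. Its level was 11.5, 9.85 and 10.5 CPM in controls and 9.51, 8.84 and 9.95 CPM after IL-1β, so the groups overlapped. It did not pass the test (log2 fold change -0.17, standard error 0.186, edgeR adjusted p = 0.666), and the 95% interval of the fold ran from 0.682 to 1.16. Only 24 h was sampled, and earlier times were not measured in these libraries.

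Zfp36l1 (chr12:80107760-80113013, minus strand) encodes a ZFP36 protein expressed in many tissues. It was the most abundant of the 9 genes, at 483, 485 and 486 CPM in controls and 528, 497 and 522 CPM after IL-1β. All 3 IL-1β samples lay above the controls, which differed by 3 CPM or less. The increase did not pass the test (log2 fold change 0.089, standard error 0.0604, edgeR adjusted p = 0.414), and the 95% interval of the fold was 0.976 to 1.16. Of the 75-nt windows in the last 500 nt of this gene, 34.3% also matched the antisense gene Gm26669. No window was shared with another gene in the other 8 genes. Whether the counting used strand is not given in the sources used here, so reads from Zfp36l1 and Gm26669 cannot be told apart.

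Zfp36l2 (chr17:84183928-84187947, minus strand) encodes the third ZFP36 protein measured. Its values were 26.9, 26.8 and 26.7 CPM in controls and 27.6, 28.6 and 27.9 CPM after IL-1β. The IL-1β samples were all higher, but the difference did not pass the test (log2 0.066, SE 0.114, edgeR adjusted p = 0.804), with a fold interval of 0.889 to 1.23. Zfp36l1 supplied 92.7% to 93% of the summed CPM of the 3 ZFP36 genes in controls and 93% to 93.4% after IL-1β. Zfp36 supplied 2.2%, 1.89% and 2% in controls and 1.68%, 1.65% and 1.78% after IL-1β. Its share was lower in all 3 IL-1β samples, by 0.325 percentage points (exact permutation p = 0.1).

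**Figure D2:**
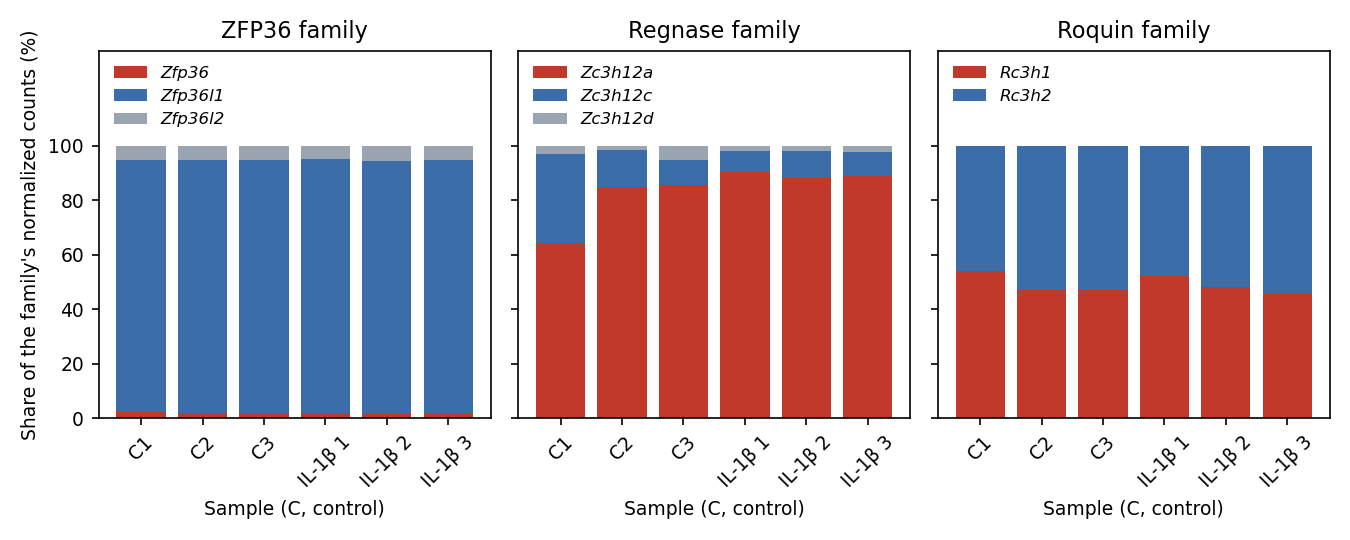
Share of each gene in the summed CPM of its family (percent, y axis) in each control and IL-1β sample (x axis), for the ZFP36, Regnase and Roquin families. Zfp36l1 holds over 90% of its family in every sample, Zc3h12a ranges from 64.4% in control 1 to 90.3%, and the 2 Roquin genes divide their family almost evenly.

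Rc3h1 encodes Roquin-1 (chr1:160906411-160974976, plus strand), a RING and CCCH zinc finger protein. It was measured at 62, 57.5 and 53.4 CPM in controls and at 66.5, 52.2 and 52.8 CPM after IL-1β. The groups overlapped, and the highest and the lowest of the 6 samples were both IL-1β samples. The test found no difference past its threshold (log2 fold change -0.015, standard error 0.103, edgeR adjusted p = 0.96), with a fold interval of 0.855 to 1.15. Rc3h2 encodes Roquin-2 (chr2:37370071-37422903, minus strand) and was at 53, 65.2 and 59.8 CPM in controls and 60.7, 56.6 and 62.8 CPM after IL-1β. All IL-1β values lay within the range of the controls, and the log2 fold change was 0.018 (standard error 0.0953, edgeR adjusted p = 0.947). Rc3h1 made up 49.3 ± 3.98% of the Roquin pair in controls and 48.6 ± 3.35% after IL-1β (SD, n = 3, exact permutation p = 0.7).

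Elavl1 (chr8:4284782-4325100, minus strand) encodes HuR. Its level was 69.2, 46.8 and 54.1 CPM in controls and 61.9, 59.8 and 54.5 CPM after IL-1β. The IL-1β samples fell within the control range. Elavl1 did not pass the test (log2 fold change 0.049, standard error 0.113, edgeR adjusted p = 0.862), with a fold interval of 0.88 to 1.22. An exon of Elavl1 overlaps the opposite-strand gene Ccl25, which averaged 8.74 CPM in controls and 7.35 CPM after IL-1β and did not pass the test (edgeR adjusted p = 0.582).

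**Figure D3:**
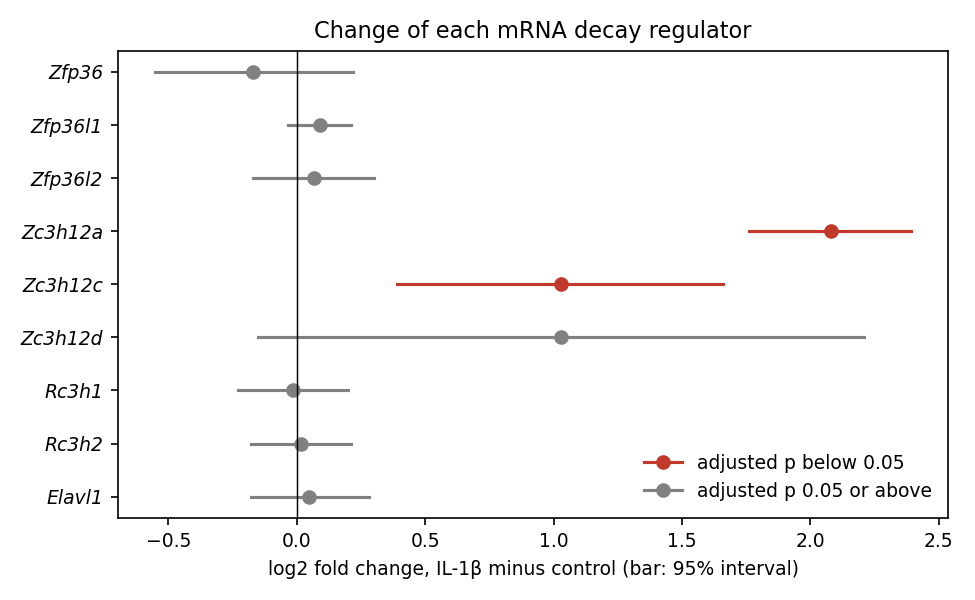
Log2 fold change of the 9 genes, IL-1β minus control, with a 95% interval derived from the edgeR F statistic. Zc3h12a and Zc3h12c lie above 0 with adjusted p below 0.05, the wide interval of Zc3h12d (-0.15 to 2.21) includes 0, and the 6 others are within 0.17 of 0.

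The order of the levels changed mainly at Zc3h12a. In controls Zfp36l1 came first at 485 CPM, followed by Rc3h2 (59.3 CPM), Rc3h1 (57.6 CPM) and Elavl1 (56.7 CPM), whose samples overlapped. Zfp36l2 came next at 26.8 CPM, then Zc3h12a (16 CPM) and Zfp36 (10.6 CPM), which overlapped each other, and last Zc3h12c (3.32 CPM) and Zc3h12d (0.679 CPM). After IL-1β Zc3h12a stood in the second place at 67.4 CPM, and its lowest sample of 66 CPM overlapped the highest Rc3h1 sample of 66.5 CPM. The remaining genes kept their order except that Elavl1 (58.7 CPM) and Rc3h1 (57.2 CPM) exchanged places within their spread.

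The log2 ratio of Zc3h12a to Rc3h1, whose proteins share targets, was -2.65, -1.61 and -1.47 in controls and 0.025, 0.39 and 0.32 after IL-1β. Roquin-1 mRNA was thus the more abundant in every control, and Regnase-1 mRNA was the more abundant in IL-1β samples 2 and 3. In IL-1β sample 1 they were nearly equal, with 633 counts for Zc3h12a and 622 for Rc3h1. The ratio differed by 2.16 on the log2 scale, and that of Zc3h12a to Zfp36 by 2.31, and neither overlapped between the groups. The ratios of Zfp36 to Zfp36l1 and to Zfp36l2 were lower after IL-1β, with differences of -0.26 and -0.23 and no overlap. Each of these 4 comparisons gave an exact permutation p of 0.1, or 0.2 after adjustment over 8 pairs. The pairs Zfp36l1 to Zfp36l2, Rc3h1 to Rc3h2 and Zfp36 to Elavl1 overlapped, with differences of 0.023, -0.04 and -0.23.

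In RNA from a culture, more RNA per cell and more cells of a type cannot be told apart, so markers of the cells a hepatocyte preparation can hold were measured beside the Regnase result. The hepatocyte marker Alb was at 15612 to 16574 CPM in controls and 13476 to 14610 CPM after IL-1β, and 8 of 9 tested hepatocyte markers fell, with a median log2 fold change of -0.33. Cps1 and Ass1, enzymes of the urea cycle that hepatocytes normally express strongly, were at 0.288 to 3.22 CPM. Macrophage markers summed to 247.2 to 279.2 CPM in controls and 253.5 to 286.6 CPM after IL-1β, and edgeR called 0 of 10 tested. Of the 10, 7 had a log2 fold change above 0, and the median was 0.38. An unadjusted edgeR p below 0.05 was found in 3, Marco (0.67), Cd74 (0.56) and C1qa (0.75), all in the higher direction. Over all 11657 tested genes, 5786 had a log2 fold change above 0 and 2746 had an unadjusted edgeR p below 0.05. For each marker list the shares to compare are the 6.97% of all tested genes called higher and the 6.44% called lower. Cd68 made up most of the macrophage sum, with 172 to 204 CPM in controls and 175 to 198 CPM after IL-1β. Of the Kupffer cell markers, Clec4f and Timd4 were at 0 to 2.42 CPM, whereas Cd5l averaged 19.9 CPM in controls and 17.2 CPM after IL-1β and Marco 3.99 and 6.33 CPM. Lymphocyte and neutrophil markers summed to 1.969 to 4.04 CPM in controls and 4.383 to 8.552 CPM after IL-1β, with Cd3e, Cd8a, Ms4a1, Cd79a and S100a9 at 0 in all 6 libraries. Within that list S100a8, singled out after its values were seen, had 0 counts in each control and 19, 36 and 51 counts after IL-1β. Endothelial markers summed to 78.06 to 86.25 CPM in controls and 77.81 to 84.97 CPM after IL-1β, with 1 of 8 higher and 2 lower. Stellate cell markers summed to 19.04 to 22.36 CPM in controls and 21.06 to 27.42 CPM after IL-1β, with 0 of 2 tested called. Cholangiocyte markers summed to 315.8 to 329.5 CPM in controls and 236.5 to 239.7 CPM after IL-1β, where 1 of 2 tested, Spp1, fell. Spp1 and Sox9 made up nearly all of this sum, since Krt7, Krt19, Epcam and Cftr were at 0 to 0.564 CPM. The mean of Spp1 went from 190 to 82.7 CPM and that of Sox9 from 134 to 155 CPM. Sox9 did not pass the test (edgeR adjusted p = 0.0519), and its groups did not overlap. The part of other cell types in the rise of Zc3h12a was not tested.

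Other RNA-binding proteins of mRNA decay were counted against the 6.97% of all tested genes called higher and the 6.44% called lower. Of 24 listed genes, 18 were tested, 1 rose and 0 fell, with a median log2 fold change of 0.07. The gene that rose was Igf2bp2, which encodes an RNA-binding protein that stabilizes mRNAs. It moved from 28.9 ± 3.77 to 61.7 ± 1.17 CPM (SD, n = 3), which is 2.13-fold (log2 1.09, SE 0.105, edgeR adjusted p = 2.1e-08). Of the other ELAV genes, Elavl2 and Elavl4 had 0 counts in every library, as did Zc3h12b and Zfp36l3. Elavl3 had 5, 4 and 0 counts in controls and 0 in each IL-1β sample, too few to be tested.

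Genes of the decay complexes were counted against the same shares of all tested genes, 6.97% higher and 6.44% lower, which are near 1 gene in each direction for lists of this size. Among 18 tested genes of CCR4-NOT and other deadenylation, 1 rose and 0 fell, with a median log2 fold change of -0.00015. This was Btg1, whose protein stimulates deadenylation by CCR4-NOT, at 89.6 ± 10.4 CPM in controls and 116 ± 1.69 CPM after IL-1β (log2 fold change 0.37, edgeR adjusted p = 0.00268). Btg3 was left out because the table holds it on 2 rows. Among 18 genes of decapping and 5′ to 3′ decay, 1 fell and 0 rose, with a median of -0.068. This was Upf1, an RNA helicase that Regnase-1 requires, at 167 ± 9.34 CPM in controls and 141 ± 6.32 CPM after IL-1β (log2 fold change -0.25, edgeR adjusted p = 0.0228). The Upf1 call was lost without control 2 (adjusted p = 0.146), without IL-1β sample 1 (0.0895) and without IL-1β sample 3 (0.128). Of 15 exosome and Ski complex genes, which degrade mRNA from the 3′ end, edgeR called 0, and 0 had an unadjusted p below 0.05. Such a p was found in 2746 of all 11657 tested genes. The log2 fold changes of the 15 genes ran from -0.13 to 0.23.

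Kinases, phosphatases and proteases that act on the regulators were listed separately. Of 19 genes tested, 3 rose and 0 fell, with a median log2 fold change of 0.057, where 13.4% of all tested genes were called in either direction and 6.97% higher. Ikbke, which encodes a kinase related to the IκB kinases, moved from 45.6 ± 3.3 to 74.3 ± 1.25 CPM (log2 fold change 0.71, edgeR adjusted p = 2.4e-06). Mapkapk2, which encodes the kinase MK2 that phosphorylates tristetraprolin, moved from 107 ± 5.48 to 134 ± 6.71 CPM (log2 fold change 0.32, edgeR adjusted p = 0.0049). Irak2, which encodes a kinase of the IL-1 receptor pathway, moved from 89.5 ± 6.24 to 108 ± 6.11 CPM (log2 fold change 0.28, edgeR adjusted p = 0.0219). The Irak2 call was lost when control 1, control 2, IL-1β sample 1 or IL-1β sample 3 was left out, with adjusted p of 0.067, 0.0519, 0.0932 and 0.0903. It was also lost under scaling by total counts alone (adjusted p = 0.0786).

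**Figure D4:**
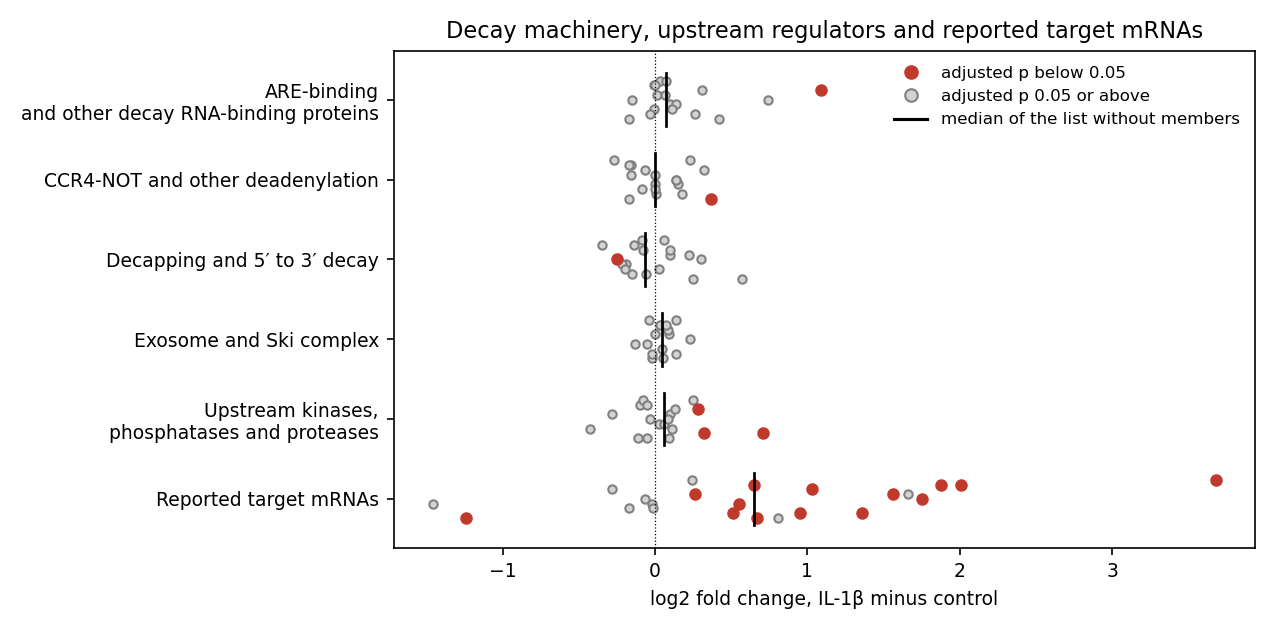
Log2 fold change of each tested gene (points, red where the adjusted p was below 0.05) in 6 lists of decay machinery, upstream enzymes and reported targets, without the 9 regulators, with the list median as a black bar. The median of the 23 reported targets plotted (0.65) stands above those of the other lists, which lie between -0.07 and 0.07. The lists were chosen with earlier results of these data known.

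The messages on which these regulators are reported to act were compared last. Of 36 listed mRNAs, 25 were tested, and 14 rose and 1 fell, with a median log2 fold change of 0.65. Over all tested genes 6.97% were higher and 6.44% lower, and the median was -0.0018. The list contains Zfp36 and Zc3h12a themselves, and without them 13 of 23 rose. It was chosen with earlier results of these data known, so its counts are a description and not independent support. The chemokine Cxcl2 was measured at 4.98, 10.7 and 8.06 CPM in controls and at 109, 98.8 and 97.4 CPM after IL-1β, with no overlap (log2 fold change 3.68, edgeR adjusted p = 2.4e-15). Lcn2, which encodes the iron-siderophore binding protein lipocalin-2, rose from 873 ± 77.3 to 3520 ± 304 CPM, and Ccl2, a monocyte chemoattractant, from 254 ± 25 to 937 ± 42.2 CPM (SD, n = 3). The neutrophil chemoattractant Cxcl1 rose from 208 ± 48.1 to 534 ± 31.1 CPM. Ccl3 was called at 1.29 ± 0.664 CPM in controls and 3.78 ± 0.757 CPM after IL-1β. Its counts were 12, 8 and 20 in controls and 32, 34 and 50 after IL-1β. Like Zc3h12d, Ccl3 entered the test through its IL-1β samples, so these values are a description.

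Of the transcriptional regulators on the target list, Hif1a, Nfkbiz and Myc rose, and Rel did not pass the test (edgeR adjusted p = 0.143). Hif1a, the hypoxia-inducible factor, had a log2 fold change of 1.75 (edgeR adjusted p = 5.3e-14), Nfkbiz, which encodes IκBζ, 0.95 (2.6e-09) and Myc 0.55 (0.00518). Among the other targets that rose, the log2 fold change was 1.03 for the kinase gene Pim1, 0.67 for Ier3, 0.65 for the transferrin receptor Tfrc and 0.51 for Vegfa. The Ccl3 call was lost without control 2 (0.0751) or IL-1β sample 3 (0.09). Bcl2, which encodes an inhibitor of apoptosis, fell from 10.4 ± 0.988 to 4.41 ± 1.41 CPM (log2 fold change -1.24, edgeR adjusted p = 8.9e-04).

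The best known targets were close to the limit of detection. Tnf had 2, 8 and 3 counts in controls and 14, 13 and 13 after IL-1β, with no overlap, and did not pass the test (log2 fold change 1.66, edgeR adjusted p = 0.0831). Like Zc3h12d, Tnf entered the test through its IL-1β samples, since no control exceeded 8 counts, so these values are a description. Il6 had 0 counts in every control and 5, 0 and 6 after IL-1β, and Ptgs2, which encodes COX-2, had 0 in every control and 7, 3 and 0. Il6, Ptgs2 and 9 other listed mRNAs had too few counts to be tested, Il2 and Icos with 0 in every library. Among them Il1b had 0, 0 and 1 counts in controls and 3, 3 and 2 after IL-1β, without overlap but at or below the limit of detection. Differences in these mRNAs were not tested.

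**Figure D5:**
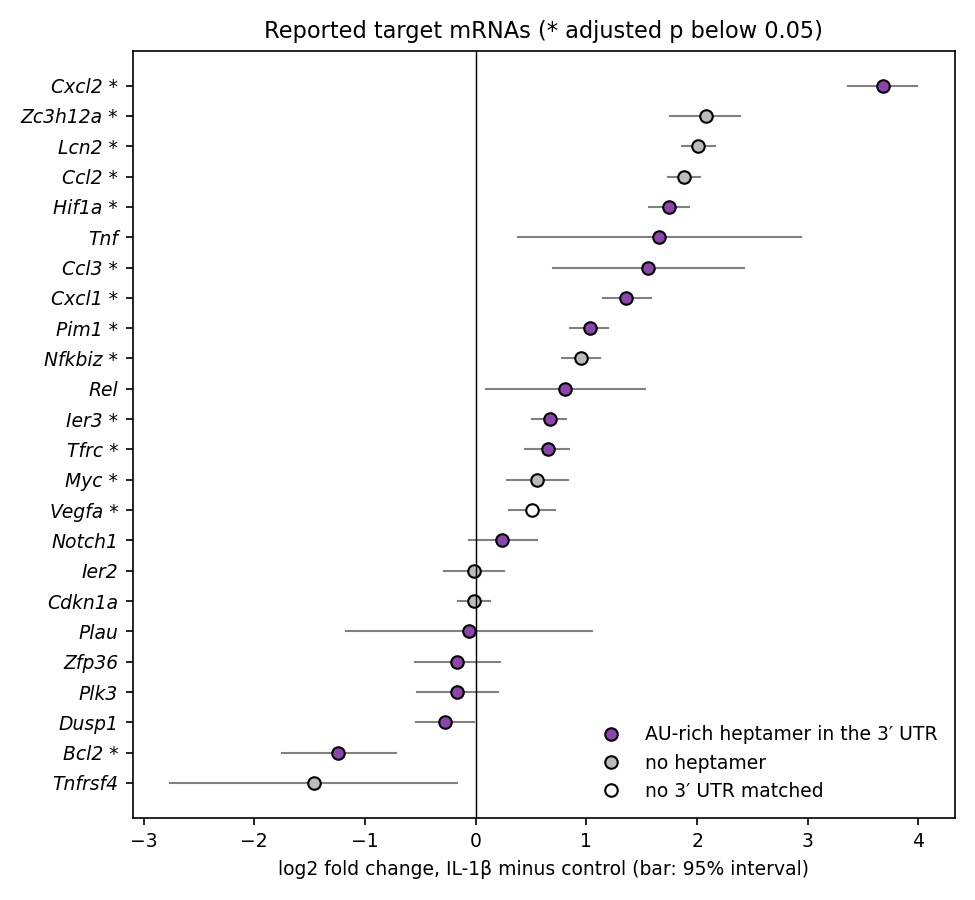
Log2 fold change of 24 of the 25 tested reported target mRNAs, IL-1β minus control, with 95% intervals and point colour for the AU-rich heptamer in the 3′ UTR. Cxcl2 (3.68) is at the top and 13 genes marked with an asterisk (adjusted p below 0.05) lie above 0, of which Zc3h12a, Lcn2, Ccl2, Nfkbiz and Myc have no heptamer.

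The heptamer made up the same share of the targets that rose and of those that did not pass the test. Leaving out the 2 regulators, 12 of the 13 targets that rose had a 3′ UTR matched, of which 8 held TATTTAT and 11 held ATTTA. Of the 9 targets that did not pass, 6 held TATTTAT and 7 held ATTTA. The longer TTATTTATT, which contains the heptamer, was in 4 of the 12 and in 5 of the 9. Over all tested genes with a 3′ UTR, 27.3% held TATTTAT, 66.2% ATTTA and 7.16% TTATTTATT. The median density of ATTTA was 4.02 per kb in the targets that rose and 2.46 per kb in those that did not pass. It was 3.51 per kb in the 9 regulators and 1.26 per kb over all tested genes. These shares are given as a description, with no test.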

How the data were processed

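RNA of 6 samples of primary mouse hepatocytes, 3 control and 3 IL-1β, was sequenced by QuantSeq (single-end, 75 nt). Samples were grouped by their labels. The authors deposited raw read counts per gene, without normalization, and these were used. They also deposited log2 values of normalized counts, and, for their own comparison, a ratio (linear fold change) and a p-value with no adjustment, none of which was used. Per the submitters' processing notes, reads were aligned with Bowtie2 to mm10 (GRCm38) and edgeR was applied. The counting tool, its use of strand and its handling of reads matching several genes are not given in the sources used here.

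The count test was edgeR 4.0.16 under R 4.3.3 (filterByExpr, TMM, quasi-likelihood test, Benjamini-Hochberg adjustment over 11657 genes). The test was checked on simulated counts, in which only genes more abundant than Zc3h12c and Zc3h12d were changed. That check does not cover the recovery of changes at their levels. Exact two-sided permutation tests used scipy 1.17.1. Alternatives were DESeq2 1.42.0, edgeR's exact test, limma 3.58.1 on log2(CPM + 1) and log2(CPM + 0.1), a gene-by-gene test with no shared spread, other scalings and filters, omission of the ribosomal RNA precursor Rn45s, a replicate block, and leaving out each sample. Motifs were counted in the longest 3′ UTR among GENCODE transcripts matched to the table's RefSeq transcripts, if at least 20 nt long. The named genes are the 9 regulators, every called gene among the reported targets, at most 5 called genes of each other pathway list and the 3 most abundant genes of marker lists, and other genes were named after their values were seen. Not every gene so chosen is reported here. The members and lists were chosen with earlier results of these data known.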

Additional observations from a re-analysis of the deposited data

How the results depend on the processing

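Zc3h12a passed the test in all 12 alternatives that used every sample (log2 fold change 2.02 to 2.13) and in the 6 that left out 1 library (1.82 to 2.23). Zc3h12c had a log2 fold change of 0.90 and did not pass in the gene-by-gene test with no shared spread (adjusted p = 0.222), and 0.78 to 1.44 with 1 library left out, where 4 of 6 fits lost the call. The number of regulators called was then 1 in that test and 1 to 2 with a library left out. The same test called 547 genes in all, against 1563, and 0 for CCR4-NOT, 0 for decapping, 1 for the upstream enzymes and 8 of the reported targets. Its lower count goes with its construction, which estimates each gene's spread from 6 samples alone. Without the low-count filter 2 CCR4-NOT genes were called.

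Changes near 0 turned sign. Rc3h2 was -0.011 with upper-quartile scaling and -0.036 with total counts alone, and Elavl1 was -0.0039 with total counts. With 1 library left out, the log2 fold change ran from -0.13 to 0.05 for Rc3h1, from -0.058 to 0.096 for Rc3h2 and from -0.07 to 0.22 for Elavl1. The Rc3h1 share difference ran from -2.51 to 1.6 percentage points, the Zfp36l1 to Zfp36l2 ratio from -0.0065 to 0.065 and the Rc3h1 to Rc3h2 ratio from -0.15 to 0.093. Calls with 1 library left out numbered 1 to 2 for other RNA-binding proteins, 1 to 2 for CCR4-NOT and 0 to 2 for decapping. The cause was not tested. Total counts alone moved the median of all genes to -0.055, and 39.6% of the 1670 calls were then higher, against 52% with TMM.

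Samples with the same replicate number were not treated as paired, and the labels do not say whether they belong together. Correlations of their deviations from group means were 0.14, 0.07 and -0.05. With 3 samples in each group these values cannot settle whether the samples were paired. A fit with a replicate block called 1671 genes and 2 regulators. Genes under about 1 CPM are limited by depth.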
